A study of Mus musculus with 6 samples.

Results

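Mouse elongating spermatids that carried a short hairpin RNA (shRNA) named for Miwi were compared with elongating spermatids that carried one named for Caf1, across the transcriptome. The members were the arrays titled shMiwi (2 arrays) and shCaf1 (2 arrays), 4 of the 6 arrays of the series. Both groups came from wildtype ICR mice, an outbred strain, labelled adult. Testes were transduced at 5 weeks of age with a lentiviral vector, shMiwi:GFP or shCaf1:GFP, and GFP-positive cells were sorted from the isolated germ cells 1 week later. All 4 arrays therefore carried a shRNA vector and GFP, and no unmanipulated cells were included. The labels call the replicates biological, but do not say how many animals each array stands for, so the spread between the 2 arrays of a group may be partly technical. The remaining 2 arrays, with the control vector pSilencer:GFP, were left out of the filter, the scaling and the fit. Each difference below is shMiwi minus shCaf1: a gene higher in shMiwi is equally a gene lower in shCaf1, and the comparison alone cannot say which group moved.

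Miwi is the PIWI protein Piwil1, which binds piRNAs, the small RNAs of the germline, in spermatocytes and spermatids. Caf1 is taken here to be Cnot7, one of the nucleases of CCR4-NOT, the complex that removes poly(A) tails from mRNAs and so starts their decay. The proteins have been reported to act together in the clearance of mRNAs from elongating spermatids, the haploid cells in which transcription stops, protamines replace histones in the nucleus, and the flagellum is completed from stored mRNAs. The contrast asks which transcripts differ between spermatids in which one or the other factor was targeted.

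RNA was measured on Affymetrix mouse 3' arrays, on which a probe set is a group of short probes for one transcript. Signals are MAS5 values in arbitrary units, and differences are on the log2(signal + 16) scale, which understates the change of dim probe sets. A probe set was called when its adjusted p was under 0.05 in limma, a linear model that shares the estimate of the spread across probe sets. Pearson's r across probe sets was 0.984 between the shCaf1 arrays, 0.983 between the shMiwi arrays, and from 0.968 to 0.974 between arrays of different groups. The 18 hybridization control probe sets, for RNAs added before hybridization, read lower in shMiwi by a log2 difference of -0.40, and scaling on them moved the median of all genes from 0.01 to 0.38. Their part in the results was not tested. Values on that scale hold this shift, and values relative to the median of all genes are given beside them. The 3' to 5' signal ratio of Actb was 2.87 and 4.69 in shCaf1 and 2.05 and 3.01 in shMiwi, and that of Gapdh 1.06 and 1.73 against 0.811 and 1.00. The ratios of Gapdh did not overlap between the groups and those of Actb did, and their part in the results was not tested either.

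The label was checked against markers. Spermatid transcripts were among the brightest on every array: the protamine Prm1 read 28335 and 33525 in shCaf1 and 22731 and 22463 in shMiwi, and the transition protein Tnp1 27973 and 31156 against 21905 and 22590. Transcripts that mark somatic cells of the testis were bright too. The Leydig cell enzyme Cyp17a1 read between 10816 and 12922, and the Sertoli cell markers Amhr2 and Clu between 18238 and 20009 and between 18287 and 23196. The RNA of all 4 arrays thus held somatic as well as spermatid transcripts, and in bulk RNA fewer cells of a type and less RNA per cell cannot be told apart.

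The targeted genes were examined first. Piwil1 read 21881 and 22442 in shCaf1 and 9780 and 10392 in shMiwi, so that the groups stood clearly apart. The log2 difference was -1.14 (SE 0.10, 2 arrays in each group, adjusted p = 0.00132 in limma), lower in shMiwi as labelled. The difference was -0.88 after quantile normalization and, after scaling on the hybridization controls, -0.74, or -1.12 relative to the median of all genes. Piwil1 read 1445360 and 292542 on the pSilencer arrays (control vector), and the part of those arrays' signal in this difference was not tested. Cnot7 had lower means in shCaf1 on all 3 of its probe sets, by smaller amounts. Its brightest probe set read 3633 and 4330 in shCaf1 and 4365 and 5012 in shMiwi, a difference of 0.24 (SE 0.13, limma adjusted p = 0.304). A second probe set read 388 and 353 against 645 and 605 and passed the test (0.73, SE 0.16, limma adjusted p = 0.0339), and the other read 237 and 231 against 276 and 347 and did not (0.38, limma adjusted p = 0.265). Thus 1 of the 3 probe sets was called. On the pSilencer arrays the 3 probe sets of Cnot7 read from 9118 to 2003570, and the part of that signal in these differences was not tested either. On the scale of the hybridization controls the brightest probe set was at 0.63 (adjusted p = 0.0128), which is 0.25 relative to the median of all genes. Cnot8, the closest paralogue of Cnot7, differed by 0.08 (SE 0.13, limma adjusted p = 0.761).

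Across the transcriptome 27022 probe sets were tested, and limma called 1000 higher in shMiwi (3.7%) and 916 lower (3.39%). With 1 probe set for each of 14241 genes, 618 genes were higher (4.34%) and 659 lower (4.63%). Most of these calls rest on a single probe set: of 340 genes called higher that had more than 1 tested probe set, 65 had at least 2 called higher, and of 282 called lower, 55 had at least 2 called lower. The median called difference was 0.78 for probe sets called higher and -0.72 for those called lower, while the median over all genes was 0.01. Past a simple rule of size, at least 2-fold with no overlap of the groups, stood 337 probe sets higher (1.25%) and 303 lower (1.12%), and by gene 152 higher (1.07%) and 167 lower (1.17%). The counts depend on how the spread is modelled: with a spread that does not vary with brightness, limma called 2 probe sets higher (0.0074%) and 14 lower (0.0518%), while 6654 had an unadjusted p under 0.05 with it varying. Without shCaf1 replicate 2, 105 were called higher and 158 lower, and without shCaf1 replicate 1, 378 and 317. Without shMiwi replicate 1 the counts rose to 1658 and 1705. With scaling on the hybridization controls, 7155 probe sets were called higher and 261 lower. Of the 130 called genes selected by the rule for naming, 42 kept their call without each array in turn. Of 58 of them with more than 1 tested probe set, 14 had all called the same way, 40 had 1 called, and 11 had a probe set of opposite sign.

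**Figure D1:**
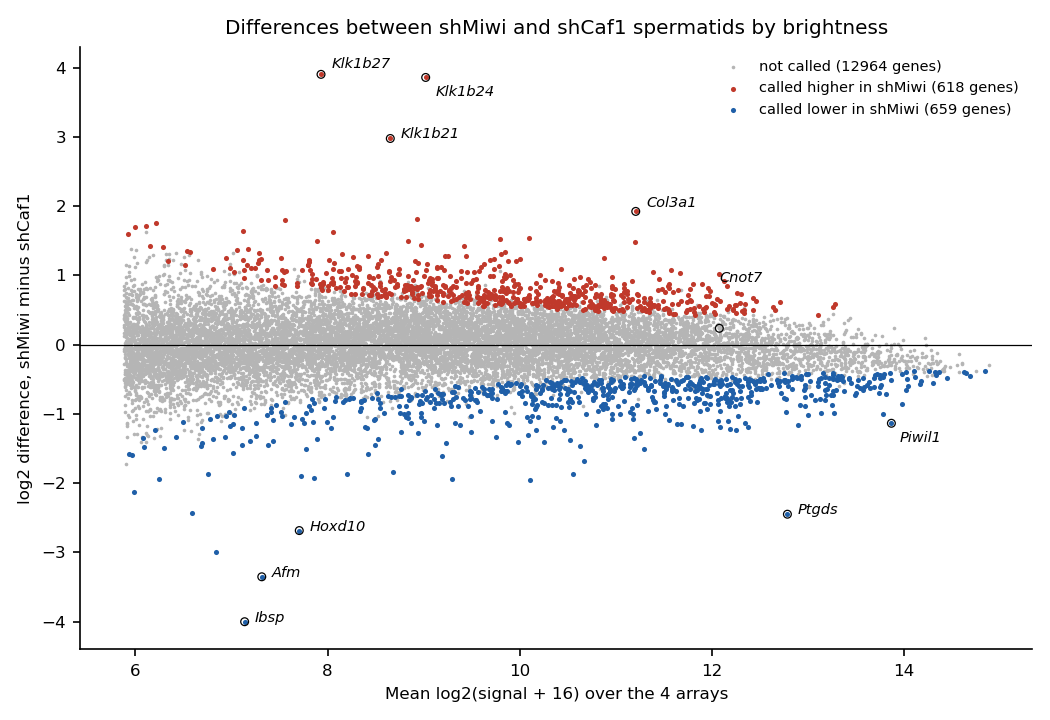
The log2 difference between shMiwi and shCaf1 (vertical axis) is plotted for each of 14241 genes against its mean log2(signal + 16) over the 4 arrays (horizontal axis). Points in red are the 618 genes called higher in shMiwi, points in blue the 659 called lower and grey points the rest; Klk1b27 and Ibsp lie at the extremes, and Piwil1 is among the brightest genes called lower.

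Calls were not spread evenly over brightness. Among the brightest 1424 genes, 40 were called higher (2.81%) and 214 lower (15.03%), with a median difference of -0.14. Among the 1424 genes just below the middle of the ranking the balance was the other way, with 76 higher (5.34%) and 42 lower (2.95%) and a median of 0.10. Quantile normalization, which gives all arrays the same distribution, called 880 probe sets higher and 1011 lower.

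The largest differences upwards were in 3 genes of the tissue kallikrein family, serine proteases encoded side by side on chromosome 7 and known from Leydig cells among other tissues. Klk1b27 read 36 and 60 in shCaf1 and 916 and 943 in shMiwi, a log2 difference of 3.91 (SE 0.23, limma adjusted p = 0.000239). Klk1b24 read 118 and 122 against 1976 and 1953 (3.86, SE 0.15, adjusted p = 2.91e-05), and Klk1b21 194 and 82 against 1084 and 1146 (2.98, SE 0.31, adjusted p = 0.00294). In all 3 the lowest shMiwi array was far above the highest shCaf1 array. The genes are near copies of one another, so probes of one may read another, and the values are not independent. The likeness extends to their promoters, which are printed to show it, each from 250 bases before to 50 after the start of the gene, 5' to 3' on the plus strand of build GRCm38.p6, from RefSeq. They lie at chr7:44052040-44052339, chr7:44187986-44188285 and chr7:44102042-44102341.
Klk1b27: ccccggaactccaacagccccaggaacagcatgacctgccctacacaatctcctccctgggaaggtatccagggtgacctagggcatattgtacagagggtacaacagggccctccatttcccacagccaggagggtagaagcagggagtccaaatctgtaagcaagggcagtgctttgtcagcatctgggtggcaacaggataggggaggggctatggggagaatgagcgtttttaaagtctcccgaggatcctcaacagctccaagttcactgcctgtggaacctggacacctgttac
Klk1b24: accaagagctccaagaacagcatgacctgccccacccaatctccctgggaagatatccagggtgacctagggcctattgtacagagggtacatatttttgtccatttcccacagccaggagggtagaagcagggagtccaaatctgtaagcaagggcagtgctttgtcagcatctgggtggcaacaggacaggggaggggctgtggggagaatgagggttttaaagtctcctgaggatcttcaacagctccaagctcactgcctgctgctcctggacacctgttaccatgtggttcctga
Klk1b21: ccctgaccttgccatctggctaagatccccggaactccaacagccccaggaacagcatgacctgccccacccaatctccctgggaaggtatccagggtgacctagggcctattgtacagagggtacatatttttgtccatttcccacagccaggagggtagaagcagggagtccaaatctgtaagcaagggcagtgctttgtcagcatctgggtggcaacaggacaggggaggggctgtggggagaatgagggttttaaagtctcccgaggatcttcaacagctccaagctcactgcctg
Aligned without counting the overhanging ends, Klk1b24 and Klk1b21 were identical at 97.7% of positions, Klk1b27 and Klk1b21 at 92.8%, and Klk1b27 and Klk1b24 at 89.7%. The founding member Klk1 had 4 tested probe sets, none called, with differences from -0.77 to 0.09.

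Of the other 12 genes among the 15 largest rises, 3 are on the extracellular matrix list, Col3a1, Col4a5 and Col4a1. Col3a1, a fibrillar collagen, read 1206 and 1188 in shCaf1 and 4863 and 4342 in shMiwi (1.93, SE 0.12, limma adjusted p = 0.000277). Col4a5, a chain of basement membrane collagen IV, read 242 and 244 against 792 and 1014 (1.82, SE 0.18), and Agrn, the proteoglycan agrin, 70 and 103 against 302 and 373 (1.80, SE 0.24). Col4a1 read 650 and 607 against 1914 and 1806 (1.54, SE 0.13), and the procollagen protease Bmp1 23 and 16 against 122 and 80 (1.70, SE 0.34). All were chosen for large called differences, so the gap between their groups follows in part from the choice. The remaining genes among the 15 largest were Aldh4a1 (1.76), a proline catabolic enzyme of mitochondria, Mylk4 (1.71), a myosin light chain kinase, Plekhh3 (1.65), the forkhead factor Foxn2 (1.64), Rasgef1c (1.60), Nek7 (1.52), a mitotic kinase whose other 2 probe sets, at differences of 0.41 and 0.24, were not called, and Aoc3 (1.498), an amine oxidase of smooth muscle. Several of these were dim, with Mylk4 at 12 and 37 and Rasgef1c at 14 and 24 in shCaf1. Mylk4, Rasgef1c, Bmp1 and Aldh4a1 passed the filter only through their shMiwi arrays. Without one or more arrays the calls of Bmp1, Mylk4, Rasgef1c, Aldh4a1 and Aoc3 were lost, in part because the probe set no longer passed the filter; for Rasgef1c the adjusted p was 0.0922 without shCaf1 replicate 1 and 0.0588 without shCaf1 replicate 2, for Mylk4 0.0876 and for Aoc3 0.0521 without shCaf1 replicate 1, and for Bmp1 0.0789 without shCaf1 replicate 2.

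Among bright transcripts, the rises were smaller. The 6 brightest genes called at 1.5-fold or more were BC005537, Slmap, Alas1, Inha, Tceal9 and Ivns1abp, with differences from 0.59 to 0.74. Alas1, the first enzyme of haem synthesis, read 4286 and 4396 in shCaf1 and 6975 and 6877 in shMiwi (0.67, SE 0.10, limma adjusted p = 0.0117). Inha, the inhibin alpha subunit of Sertoli cells, read 4396 and 4044 against 6515 and 6214 (0.59, SE 0.11, limma adjusted p = 0.0208). The groups did not overlap in these, but all 6 lost their call without shCaf1 replicate 2, at adjusted p from 0.0548 for Alas1 to 0.205 for Ivns1abp.

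The largest differences downwards included genes known from bone and serum. Ibsp, bone sialoprotein, read 523 and 573 in shCaf1 and 16 and 23 in shMiwi (-4.002, SE 0.24, limma adjusted p = 0.000239), and both of its probe sets were called. Afm, the serum vitamin E carrier afamin, read 494 and 492 against 41 and 28 (-3.35, SE 0.23), and Tmprss11a, a membrane serine protease, 312 and 301 against 30 and 20 (-2.999, SE 0.26). Signal on both shMiwi arrays was thus at the dim end of the range, and these genes passed the filter only through their shCaf1 arrays. Ptgds, a prostaglandin D synthase on the Leydig marker list, was the brightest of the 15: it read 15416 and 17649 against 2873 and 3149 (-2.45, SE 0.11, limma adjusted p = 6.84e-05), and its other probe set 8409 and 8653 against 1236 and 1295. No other gene on the Leydig marker list was called lower. Lipe, hormone-sensitive lipase, read 2877 and 2835 against 927 and 637 (-1.87, SE 0.18), and Wbscr25 2103 and 2195 against 640 and 461 (-1.95, SE 0.17). The macrophage-related genes Wfdc17 (1261 and 1168 against 309 and 299; -1.94, SE 0.15) and Ccl8 (402 and 385 against 131 and 65; -1.90, SE 0.28) were lower as well. 1700104B16Rik (-2.44), Pkp1 (-1.94), a desmosome protein, and Naaladl1 (-1.87), a peptidase, were dim, at 209 or less on all 4 arrays. They too passed the filter only through their shCaf1 arrays. Pkp1 lost its call without shCaf1 replicate 1 (adjusted p = 0.0592) and replicate 2 (0.0503), and Naaladl1 without shCaf1 replicate 2 (0.0539). Lower still than Ibsp were 2 probe sets that name no gene, at -4.72 and -4.54, and both passed the filter only through their shCaf1 arrays.

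Hoxd10, Mecom and Zfp503 were also among the 15 largest falls. Hoxd10, a patterning homeobox gene, read 419 and 628 in shCaf1 and 67 and 65 in shMiwi (-2.69, SE 0.24, limma adjusted p = 0.00162). Mecom, a zinc finger transcription factor, read 123 and 110 against 13 and 16 (-2.13, SE 0.32), and Zfp503 423 and 452 against 93 and 115 (-1.93, SE 0.20). The same 3 genes read between 3691 and 20186 on the pSilencer arrays, which stood apart from the others, with hybridization controls at 82.3 and 16.2 times the mean of the shRNA arrays. More widely, probe sets in the brightest 1% of the first pSilencer array made up 6.22% of those called lower in shMiwi and 1.3% of those called higher, against 1.67% of all tested; for the second pSilencer array the values were 9.83% and 0.4%. The part of this in the result was not tested. The shares called over all genes were 4.34% higher and 4.63% lower. Of 15 Hox genes tested, 4 were called lower and 0 higher, with a median of -0.52; besides Hoxd10 they include Hoxb3 (205 and 220 against 79 and 57) and Hoxa5 (194 and 261 against 77 and 85), and without shCaf1 replicate 2 only 1 of 14 was called, with Hoxb3 at adjusted p = 0.0773 and Hoxa5 at 0.134. Mecom passed the filter only through its shCaf1 arrays, and no longer passed it when either of them was left out.

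**Figure D2:**
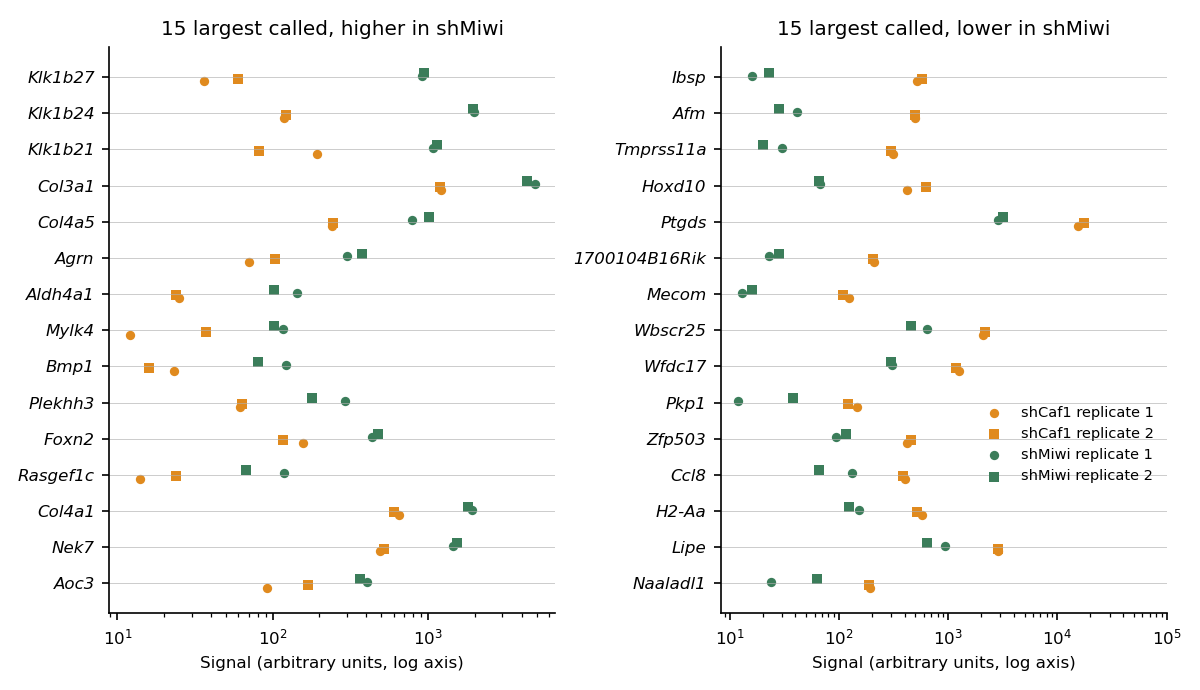
Signals on each of the 4 arrays (horizontal log axis, arbitrary units) are shown for the 15 genes with the largest called rises (left) and falls (right) in shMiwi; circles are replicate 1 and squares replicate 2 of shCaf1 (orange) and shMiwi (green). The 30 genes were chosen by their called difference, so the gap between the groups follows in large part from the choice. Ptgds, at 15416 and 17649 in shCaf1, is the brightest of them.

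Many late spermatid transcripts were lower in shMiwi. Of 35 genes on a list of elongating spermatid markers, 21 were called lower and 0 higher, with a median difference of -0.49 against 0.01 over all genes. Their summed signal was 445353 and 474744 in shCaf1 and 330313 and 323156 in shMiwi. Spata18, a mitochondrial quality control protein, read 7447 and 7471 against 3261 and 3078 (-1.23, SE 0.11, limma adjusted p = 0.00139). Fscn3, a testis actin-bundling protein, read 3340 and 3346 against 1412 and 1755 (-1.08, SE 0.14), and Oaz3, the testis antizyme, 19572 and 20310 against 9554 and 10284 (-1.01, SE 0.10). These 3 kept their call without each array in turn. Of the protamine genes Prm1 fell by 0.45, Prm2 by 0.48 and Prm3 by 0.81 on the log2 scale. Each lost its call without shCaf1 replicate 2, where the differences were -0.33, -0.48 and -0.64. Prm1 also lost it when either shMiwi array was left out, and Prm2 without shCaf1 replicate 1 or shMiwi replicate 2. The other tested probe sets of Prm1, at -0.39 and -0.43, were not called. For the whole list, the number called lower was 13 and 6 without shCaf1 replicate 1 and 2, 18 and 17 without shMiwi replicate 1 and 2, and 0 with a spread that does not vary with brightness. With scaling on the hybridization controls, 4 were called higher and 5 lower, and the median was -0.09, or -0.48 relative to all genes. Of the 35 genes, 28 were among the brightest 1424, and 20 of these 28 were called lower (71.4%), against 15.03% of all 1424.

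Spata18 is among the late spermatid genes with the sequence TGACGT, part of the element that the germ cell activator CREM binds, near the start. Its promoter is printed with the match (here on the reverse strand, ACGTCA) in capitals, from 250 bases before to 50 after the start, on the plus strand of GRCm38.p6 at chr5:73651130-73651429, from RefSeq.
Spata18: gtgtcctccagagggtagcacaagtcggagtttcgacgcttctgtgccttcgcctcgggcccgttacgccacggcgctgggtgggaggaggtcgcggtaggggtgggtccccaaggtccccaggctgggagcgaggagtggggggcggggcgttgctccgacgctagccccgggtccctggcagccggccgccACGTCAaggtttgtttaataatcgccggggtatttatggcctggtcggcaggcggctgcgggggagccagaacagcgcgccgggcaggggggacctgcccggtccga
On either strand, 3 of the 18 elongating spermatid genes called lower that had a promoter in the table held this sequence (16.7%), namely Gapdhs, Izumo1 and Spata18, against 7.51% of 32851 promoters of this length. The share was the same among all tested genes of the list with a promoter, called or not (5 of 30). With numbers this small the match is a description only.

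Lists of sperm structure genes, which share members with that list, also had more genes lower than higher. Over all genes 4.34% were called higher and 4.63% lower, and over the brightest 1424 genes 2.81% and 15.03%. The testis kinases and phosphatases, at 14.3% lower, were near the share of the brightest genes. Of 35 genes of the fibrous sheath and outer dense fibres, the columns and sheath around the flagellum, 17 were called lower and 0 higher (median -0.49). Of the 35, 20 were among the brightest 1424 genes, and 13 of these 20 were called lower (65%). Akap4, the main fibrous sheath protein, read 12967 and 14800 in shCaf1 and 6943 and 7062 in shMiwi (-0.98, SE 0.11, limma adjusted p = 0.00355), and all 3 of its probe sets were called. Txndc2, a thioredoxin of the sheath, read 8771 and 10883 against 4829 and 5079 (-0.98, SE 0.13). Among acrosome and egg-binding genes, 11 of 52 were lower and 1 higher (median -0.31). The actin-like protein Actl7a of the head read 5468 and 5367 against 3213 and 2798 (-0.85, SE 0.12), and Crisp2, a sperm surface and acrosome protein, 20527 and 21164 against 12937 and 13571 (-0.65, SE 0.09). Among 19 CatSper and other sperm ion channel and transport genes, 5 were lower and 0 higher (median -0.31), with the sodium pump subunit Atp1a4 at 4972 and 5507 against 2792 and 2570 (-0.96, SE 0.12). Among 28 testis kinases and phosphatases, 4 were lower and 0 higher (median -0.11), with Tssk6 at 11703 and 12883 against 7432 and 6632 (-0.81, SE 0.11) and Tssk3 at 9474 and 8580 against 5581 and 4988 (-0.77, SE 0.11). Akap4, Txndc2, Actl7a, Crisp2, Atp1a4, Tssk6 and Tssk3 kept their calls without each array in turn. On the scale of the hybridization controls the acrosome median was 0.06 and the ion channel median 0.08, which are -0.32 and -0.31 relative to all genes.

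Further lists of the flagellum, sperm metabolism and germ cell stages were examined. Over all genes 4.34% were called higher and 4.63% lower. Over the brightest 1424 genes the shares were 2.81% and 15.03%, with a median of -0.14. The axoneme genes, at 12.4% lower with the same median, were near the values of the brightest genes. Of 89 axoneme genes, 11 were lower and 2 higher (median -0.14), led by the dynein heavy chain Dnah7a (318 and 219 against 101 and 81; -1.39, SE 0.25, limma adjusted p = 0.0201), but without shCaf1 replicate 1 or 2 only 0 and 1 were called lower, Dnah7a losing its call in the first (adjusted p = 0.0898). Of 30 glycolysis genes, 8 were lower and 2 higher (median -0.24; on the hybridization scale 0.16, or -0.23 relative to all genes). Hk1, which holds the first step in sperm, read 11152 and 12080 against 6427 and 5111 (-1.02, SE 0.13). Gapdhs, the sperm form of Gapdh, read 9905 and 10940 against 6146 and 5297 (-0.87, SE 0.12). Slc16a3, a lactate carrier, was higher (1.41, SE 0.32, limma adjusted p = 0.0378) but dim, and passed the filter only through its shMiwi arrays. Slc16a3 lost its call without any one of the 4 arrays, at differences from 1.15 to 1.67. Of 31 round spermatid markers, 7 were lower and 0 higher (median -0.37; on the hybridization scale 0.03, or -0.35 relative to all genes), led by Actl9 (-0.89; adjusted p = 0.0903 without shCaf1 replicate 2) and Actl7a. Of 39 pachytene spermatocyte markers 2 were higher and 3 lower (median -0.04), and of 22 spermatogonial markers 1 was higher and 0 lower (median 0.16). The spermatogonial marker called was Ccnd2, cyclin D2, at 381 and 353 against 824 and 809 (1.12, SE 0.15, limma adjusted p = 0.00816). Its call was lost without shCaf1 replicate 2, at a difference of 1.07. Of its 6 tested probe sets, 2 were called, both higher.

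The 6 brightest genes called lower at 1.5-fold or more were Piwil1, Akap12, Crisp2, Dbil5, Cabs1 and Oaz3. Those not yet described are Dbil5, an acyl-CoA binding protein of spermatids (20538 and 22833 in shCaf1 against 10763 and 13279 in shMiwi; -0.86, SE 0.12), Cabs1, a calcium-binding flagellar protein (18001 and 18769 against 9872 and 12640; -0.72, SE 0.13), and Akap12, a kinase anchor (20485 and 20834 against 14717 and 12760; -0.59, SE 0.10). All were called in limma, at adjusted p of 0.00966, 0.0187 and 0.0185. Without shCaf1 replicate 2 the calls of Cabs1 (adjusted p = 0.0586) and Akap12 (0.0684) were lost, as was that of Akap12 without shMiwi replicate 2 (0.054).

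**Figure D3:**
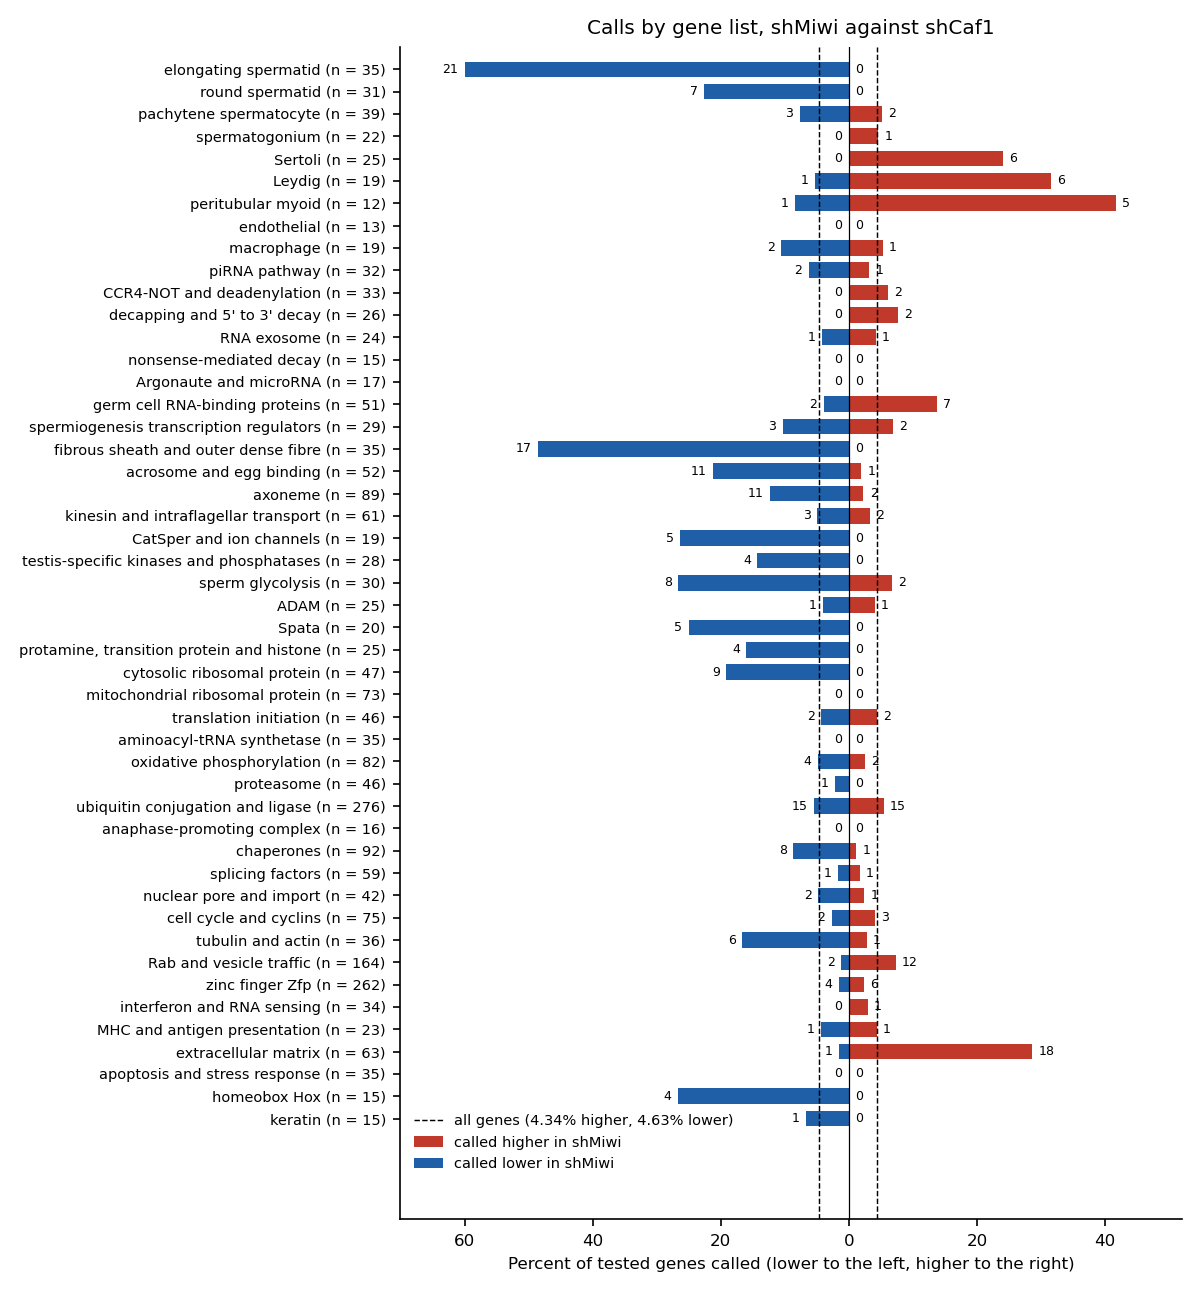
For each gene list with at least 10 tested genes, bars give the percentage of its tested genes called higher (red, to the right) or lower (blue, to the left) in shMiwi, with the number of genes at the bar's end and n the number tested. The dashed lines mark the share over all genes (4.34% higher and 4.63% lower); the elongating spermatid bar reaches 21 of 35 lower and the extracellular matrix bar 18 of 63 higher.

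Genes of RNA regulation were examined by list, beside the shares over all genes (4.34% higher, 4.63% lower). Of 32 piRNA pathway genes, 2 were lower (6.25%) and 1 higher (3.13%): besides the targeted Piwil1, Gtsf1, a partner of PIWI proteins, read 18501 and 21482 in shCaf1 and 13982 and 14194 in shMiwi (-0.50, SE 0.11, limma adjusted p = 0.0311), and Mybl1, the transcription factor that drives pachytene piRNA genes, 1162 and 1170 against 1721 and 2408 (0.80, SE 0.17, limma adjusted p = 0.0311). Gtsf1 was not called without shCaf1 replicate 2 (adjusted p = 0.181) or shMiwi replicate 2 (0.0553), and Mybl1 not without shCaf1 replicate 1 (0.089) or 2 (0.111). The other tested probe set of Gtsf1 was at -0.25 and that of Mybl1 at 1.45, and neither was called. Piwil2, another PIWI protein, differed by 0.24 (SE 0.10, limma adjusted p = 0.196). Of 33 genes of CCR4-NOT and deadenylation, 2 were higher (6.06%) and 0 lower, with a median of 0.00: Paip1, a poly(A)-binding protein partner (0.63, SE 0.14), and the deadenylase Cnot6 (1225 and 1211 against 1768 and 1897; 0.58, SE 0.12; its other 3 probe sets, from 0.11 to 0.30, were not called), both lost without either shCaf1 array (adjusted p from 0.0589 to 0.237). Among 26 decapping and 5' to 3' decay genes 2 were higher (7.69%) and 0 lower, among 24 exosome genes 1 and 1, and among 15 nonsense-mediated decay and 17 Argonaute and microRNA genes 0 were called in limma, with 2 in each list at an unadjusted p under 0.05. For germ cell RNA-binding proteins, 7 of 51 were higher (13.7%) and 2 lower (3.92%), with a median of 0.00; 0 and 1 were called higher without shCaf1 replicate 1 and 2. Mbnl2, a splicing regulator, read 616 and 664 against 1132 and 1334 (0.93, SE 0.15), and Cpeb3, a regulator of cytoplasmic polyadenylation, 1843 and 2055 against 1032 and 690 (-1.19, SE 0.19). The other tested probe sets of Mbnl2, from 0.23 to 0.86, were not called. The other 3 tested probe sets of Cpeb3 were not called and ran from -0.15 to 0.64, and the mean over its probe sets was -0.19, so its direction is uncertain. Mbnl2 was not called without shCaf1 replicate 1 (adjusted p = 0.0599) or replicate 2 (0.0551), nor Cpeb3 without replicate 2 (0.0531).

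Many matrix transcripts and some somatic markers were higher in shMiwi. The shares called over all genes were 4.34% higher and 4.63% lower. Of 63 extracellular matrix genes, 18 were called higher and 1, Col20a1, lower, with a median of 0.29. The members called include 5 of the 6 chains of collagen IV and both chains of collagen I, which were picked out after their values had been seen; the other chain, Col4a6, was dim and not called on either probe set (-0.17 and 0.56). Col1a2 read 1386 and 1400 in shCaf1 and 3889 and 3987 in shMiwi (1.49, SE 0.11), and Col1a1, far dimmer, 88 and 82 against 165 and 245 (1.11, SE 0.26). Besides Col4a1 and Col4a5, Col4a2 read 407 and 334 against 905 and 731 (1.11, SE 0.18), Col4a3 196 and 136 against 452 and 412 (1.32, SE 0.22), and Col4a4 550 and 750 against 1492 and 1513 (1.21, SE 0.17). These 7 genes were picked from those called, so the gap between their groups follows in part from the choice. Of all 63 matrix genes, 12 were at least 2-fold higher with no overlap of the groups, against 1.07% of all genes. The laminin chain Lamb2, which basement membranes also hold, read 206 and 257 against 572 and 633 (1.33, SE 0.18). Without shCaf1 replicate 1 and 2 the number of matrix genes called higher was 11 and 7, and without shMiwi replicate 1 and 2 it was 16 and 17; it was 18 after quantile normalization, 33 on the hybridization scale and 0 with a spread that does not vary with brightness.

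Col4a1 and Col4a2 are neighbours on opposite strands, with annotated starts 21 bases apart and placed so that their 5' ends overlap. Their promoters are printed because their windows overlap and both genes were called higher. The Col4a1 window lies on the minus strand at chr8:11312777-11313076 and the Col4a2 window on the plus strand at chr8:11312555-11312854, both in GRCm38.p6 from RefSeq and 5' to 3' for their gene. They share 78 bases.
Col4a1: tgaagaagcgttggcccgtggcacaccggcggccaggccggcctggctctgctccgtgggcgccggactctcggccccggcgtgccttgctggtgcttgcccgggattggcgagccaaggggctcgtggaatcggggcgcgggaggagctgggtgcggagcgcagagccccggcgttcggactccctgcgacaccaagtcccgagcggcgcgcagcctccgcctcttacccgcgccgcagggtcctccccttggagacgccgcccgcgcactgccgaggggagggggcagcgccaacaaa
Col4a2: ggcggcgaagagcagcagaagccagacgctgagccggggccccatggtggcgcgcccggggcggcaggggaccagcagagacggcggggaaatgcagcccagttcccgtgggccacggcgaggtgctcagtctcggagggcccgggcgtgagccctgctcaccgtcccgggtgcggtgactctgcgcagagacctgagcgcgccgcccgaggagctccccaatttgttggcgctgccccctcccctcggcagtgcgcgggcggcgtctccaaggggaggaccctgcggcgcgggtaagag

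Markers of some cells around and inside the tubule were also higher. The lists are read beside the shares over all genes, 4.34% higher and 4.63% lower. Of 12 peritubular myoid markers, the contractile cells of the tubule wall, 5 were higher and 1 lower (median 0.71), and their summed signal was 11698 and 11662 in shCaf1 and 13908 and 13423 in shMiwi. Myl9, a smooth muscle myosin light chain, read 930 and 817 against 1763 and 1603 (0.94, SE 0.14, limma adjusted p = 0.0103), and Myh11, the smooth muscle heavy chain, 298 and 270 against 532 and 579 (0.93, SE 0.17, limma adjusted p = 0.0198), while the defining marker Acta2 differed by 0.25 (limma adjusted p = 0.218) and Actg2 was lower (-0.81, SE 0.12). Of 25 Sertoli markers, 6 were higher and 0 lower (median 0.18), with sums of 113271 and 113256 against 124983 and 121835. Inhbb, an activin and inhibin subunit, read 1402 and 1399 against 2601 and 2979 (0.98, SE 0.13), Kitl, the ligand of the germ cell receptor Kit, 574 and 564 against 1128 and 1166 (0.99, SE 0.14), and Wt1 697 and 662 against 1206 and 1134 (0.77, SE 0.14); Amhr2, Clu and Sox9 were not called. The other tested probe sets of Inhbb (0.11) and Kitl (0.65 and 0.91) were not called. Of 19 Leydig markers, 6 were higher, 3 of them the kallikreins, and Ptgds was lower (median 0.23). Their sums overlapped between the groups, at 64433 and 67905 against 68526 and 67274. Of the steroidogenic members, Cyp11a1 was called, at 0.51, while Cyp17a1 at 0.23, Hsd3b1 at 0.05 and Hsd17b3 at -0.46 were not called. Limma called 0 of 13 endothelial and 0 of 5 erythrocyte markers, with 0 and 1 at an unadjusted p under 0.05. The part of these cell types in the matrix result was not tested. Myh11 and Wt1 were not called when either shCaf1 array was left out. Without shCaf1 replicate 1 or 2 the myoid list had 1 gene called higher in each case, and the Sertoli list 2 and 1; Myl9, Myh11, Kitl and Wt1 lost their calls without shCaf1 replicate 2 (adjusted p = 0.0688, 0.125, 0.0531 and 0.13).

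**Figure D4:**
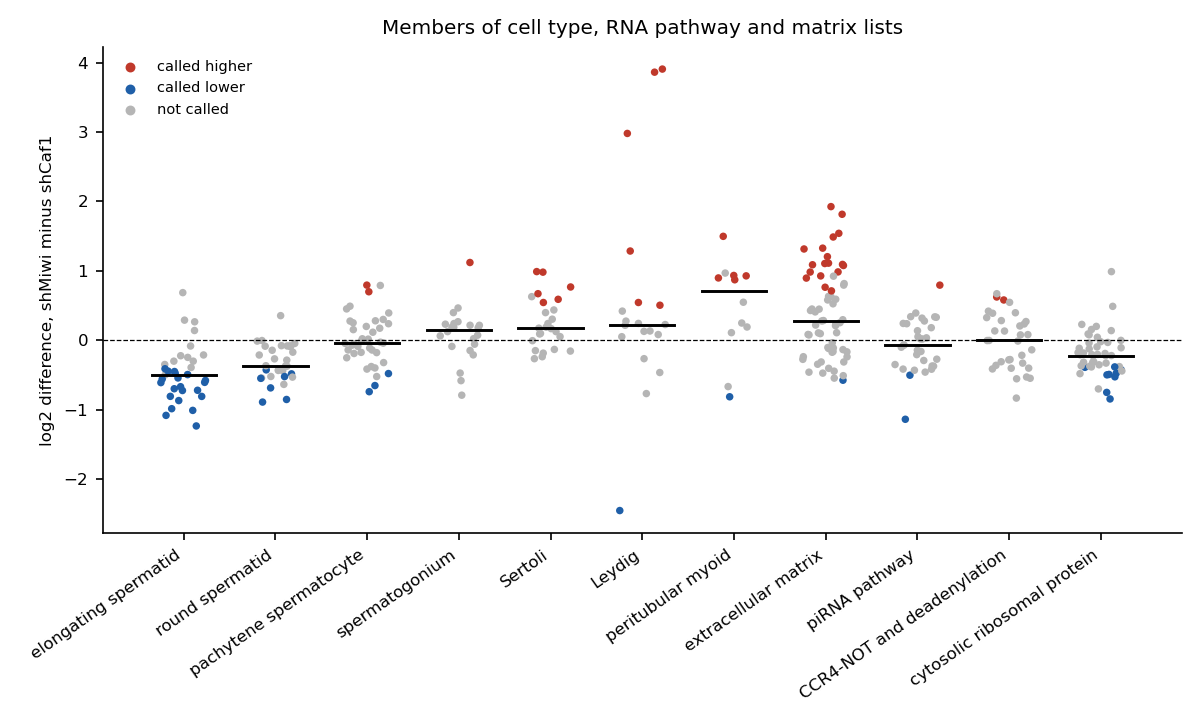
Each point is a gene of a list, placed by its log2 difference between shMiwi and shCaf1 (vertical axis); points in red were called higher, in blue lower and in grey not called, black bars are list medians and the dashed line is the median of all genes. Medians run from -0.49 for elongating spermatid markers to 0.71 for peritubular myoid markers, and 3 kallikreins stand far above the other Leydig markers.

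Probe sets of the major histocompatibility complex disagreed within a gene. For H2-D1, a class I antigen-presenting molecule, 8 probe sets were tested, of which 3 were called higher and 3 lower. The brightest read 1944 and 1459 in shCaf1 and 2831 and 2614 in shMiwi (0.69, SE 0.15, limma adjusted p = 0.0372, or 0.236 without shCaf1 replicate 2), while others read 404 and 369 against 13 and 9 (-3.90) and 440 and 515 against 77 and 54 (-2.61). The probe set at 13 and 9 in shMiwi passed the filter only through its shCaf1 arrays. The groups stood apart in both directions, so no direction is given for the gene, and the mean over its probe sets was -0.84. For H2-Aa, a class II chain, all 3 tested probe sets were lower, the brightest at 575 and 519 against 153 and 123 (-1.87, SE 0.19, limma adjusted p = 0.00281). The 4 probe sets of H2-K1, another class I molecule, did not pass the test. Of the 8 H2-D1 probe sets, 7 carry the suffix x_at, which marks probes that can match several transcripts, and the part of this was not tested. The mice were outbred, and the labels do not say how many animals each array stands for. Differences between animals and between groups therefore cannot be told apart here.

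**Figure D5:**
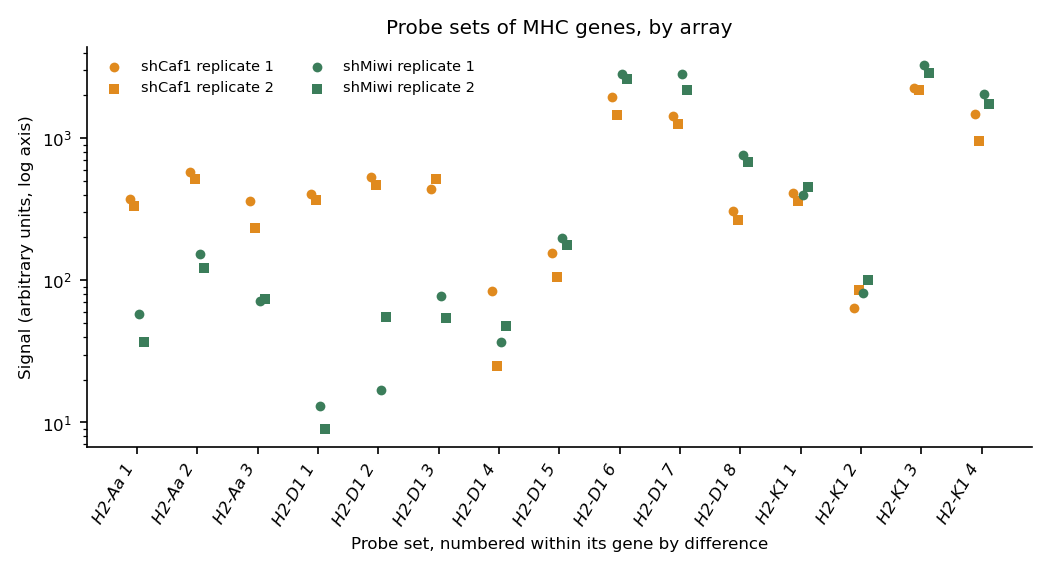
Signals on the 4 arrays (vertical log axis, arbitrary units) are shown for each tested probe set of H2-Aa (3), H2-D1 (8) and H2-K1 (4), numbered within a gene by difference; circles and squares are replicates 1 and 2 of shCaf1 (orange) and shMiwi (green). The H2-D1 probe sets run both ways, from 404 and 369 against 13 and 9 to 305 and 267 against 763 and 679.

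Genes of the cell machinery were read against the shares over all genes (4.34% higher, 4.63% lower). Of 47 cytosolic ribosomal protein genes 9 were lower and 0 higher (median -0.22; on the hybridization scale 0.18, or -0.20 relative to all genes). Of the 47, 37 were among the brightest 1424 genes, and 8 of these were called lower (21.6%), against 15.03% of all 1424. Rps19 read 5537 and 4903 in shCaf1 and 2725 and 3084 in shMiwi (-0.84, SE 0.12, limma adjusted p = 0.00989), and Rpl37a 21199 and 23178 against 15320 and 15502 (-0.52, SE 0.10). The other tested probe sets of Rpl37a, at -0.27 and -0.77, were not called. After quantile normalization 2 of the 47 were called, and without shCaf1 replicate 2 only 1, Rpl37a being lost at adjusted p = 0.112. The leading probe sets of Rps19 and Rpl37a read between 167689 and 1389590 on the pSilencer arrays. Hnrnpd, an RNA-binding protein, was lower as well, at 7402 and 7944 against 3694 and 3291 (-1.13, SE 0.11, limma adjusted p = 0.00237). It read 202752 and 242606 on the pSilencer arrays. The other tested probe set of Hnrnpd was at -0.06 and was not called. Of 59 splicing factors, 1 was lower, Hnrnpd, and 1 higher. Limma called 0 of 73 mitochondrial ribosomal protein genes, with 9 at an unadjusted p under 0.05. Of 92 chaperones, 8 were lower and 1 higher (median -0.06), led by Dnajb8 (2734 and 2533 against 1424 and 956; -1.16, SE 0.18), a spermatid DnaJ protein, Bag1 (-0.81, SE 0.12) and Dnajb4 (-0.80, SE 0.11). Dnajb8 and Dnajb4 kept their calls without each array and Bag1 lost it without shCaf1 replicate 2 (adjusted p = 0.0583); another probe set of Dnajb4 had the opposite sign (0.46, adjusted p = 0.0789, not called). Of 36 tubulin and actin genes, 6 were lower (16.7%) and 1 higher, beside 15.03% lower over the brightest 1424 genes. Those lower include the tubulin-modifying ligases Ttll3 (-0.83) and Ttll9 (-0.75). Neither ligase was called without shCaf1 replicate 2 (-0.84 and -0.63), nor Ttll3 without shCaf1 replicate 1 (-0.81).

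Traffic and ubiquitin genes were compared with the same shares over all genes (4.34% higher, 4.63% lower). Of 164 Rab and vesicle traffic genes, 12 were higher (7.32%) and 2 lower (1.22%; median 0.11), with the small GTPases Rab7b (157 and 177 in shCaf1 against 371 and 375 in shMiwi; 1.09, SE 0.19) and Rab33b (490 and 437 against 900 and 936; 0.96, SE 0.15) ahead and the coatomer subunit Copz1 lower (1407 and 1581 against 912 and 729; -0.86, SE 0.15). Without shCaf1 replicate 2 none of the list was called in limma, those 3 at adjusted p of 0.0592, 0.0857 and 0.13. Of 276 ubiquitin conjugation and ligase genes, 15 were higher and 15 lower (5.43% each), near the shares over all genes, with the ligase Trim56 highest (67 and 66 against 218 and 180; 1.38, SE 0.24) and the F-box protein Fbxo44 among the lowest (431 and 337 against 218 and 112; -1.20, SE 0.29). Of 25 ADAM genes, 1 was higher and 1 lower (4% each), near the shares over all genes. Adam9, a widely expressed membrane protease, read 827 and 812 against 1512 and 1844 (1.01, SE 0.14, limma adjusted p = 0.00966), a rise that held without each array in turn. Adam21 was lower (-0.76, SE 0.13, limma adjusted p = 0.0169), and lost its call without either shCaf1 array, at differences of -0.73 and -0.78. Of 46 proteasome genes 1 was lower (2.17%), and of 34 interferon and RNA sensing genes 1 was higher (2.94%). Trim56 and Fbxo44 were not called without shCaf1 replicate 2, at differences of 1.36 and -1.37. Fbxo44 was also not called without shCaf1 replicate 1 (-1.03) or shMiwi replicate 2 (-0.76), nor Rab7b without shCaf1 replicate 1 (1.01).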

How the data were processed

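Total RNA was extracted with Trizol, amplified and biotin-labelled with a 3' IVT kit for Affymetrix arrays, per the labels' protocols. The authors deposited 1 linear signal intensity per probe set and array, for 45101 probe sets; the submitters' processing notes name MAS5, with a version not given in the sources used here. Every array has a 2% trimmed mean of 500.

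Signals of the 4 shRNA arrays were taken to log2 after adding 16. After dropping 64 Affymetrix controls, those with a mean above the 40th percentile were kept: in the platform annotation 23916 name 1 gene, 680 more than 1 and 2426 none. The probe set with the highest mean stood for its gene. RefSeq (GRCm38.p6) held 99.4% of the named probe sets' gene identifiers. Groups were compared in limma 3.58.1 (R 4.3.3; lmFit, eBayes with an intensity trend, 2 residual degrees of freedom, Benjamini-Hochberg over all tested probe sets), tested on simulated data. A fit that leaves out an array assumes that the lone array of its group varies like the other group. The number of arrays limits the precision.

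The members and the 50 gene lists were chosen with earlier results of these data known. Named were Piwil1, Cnot7 and Cnot8, the 15 largest called differences in each direction, the 6 brightest called genes at 1.5-fold or more in each direction, and up to 3 called members of a list; genes outside this rule were chosen after their values were seen. Other constants, filters, scalings, variance models, thresholds and probe set choices were tried, as were a replicate block and fits without each array.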

Additional observations from a re-analysis of the deposited data

How the results depend on the processing

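With a constant of 1 added, 516 probe sets were past the size rule higher, and with 64 added 100 higher and 130 lower. Without the filter 269 were called higher and 299 lower, and 746 and 798 were past the size rule; above the 70th percentile 93 and 107 were. Median centring called 520 lower. Scaling on the hybridization controls called 7155 higher and 261 lower, put 1762 and 93 past the size rule, and brought Cnot7 to 0.63, past the threshold, or 0.25 relative to the median of all genes. Of the 1916 probe sets called, 1231 were called the same way on that scale and 6 changed sign. Without the intensity trend 2 were called higher and 14 lower, and Piwil1, at -1.14, was not called (adjusted p = 0.117). At an adjusted p under 0.01, 76 were higher and 158 lower, and under 0.1, 2055 and 1670. Leaving out each array gave from 105 to 1658 called higher and from 158 to 1705 lower, and from 424 to 652 and from 359 to 587 past the size rule. Taking the mean over a gene's probe sets reversed Kif1b (0.0455), Eif1ax (0.25) and H2-D1 (-0.84). The cause of these shifts was not tested. The replicate numbers are shared by 2 pairs only, whose replicate differences correlated at 0.19 between the groups; with the replicate number as a block 2936 were called higher and 2456 lower, and all 1916 kept their call. Piwil1 kept its direction under every alternative named here, and its call under all but the model without the trend.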

Other observations

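The X chromosome, picked out after its values were seen, had more genes higher in shMiwi. Of 469 X-linked genes tested, 39 were called higher (8.32%) and 15 lower (3.20%), with a median log2 difference of 0.18, while of 13677 autosomal genes 4.23% were higher and 4.68% lower, with a median of 0.00. The median over X-linked genes was 0.14 after quantile normalization, and 0.56 against 0.38 for autosomes after scaling on the hybridization controls. Without shCaf1 replicate 2, 2 X-linked genes were called higher and 5 lower, at a median of 0.17. The difference between the chromosomes was not tested.

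Markers of macrophages ran both ways, and are read beside the shares over all genes, 4.34% higher and 4.63% lower. Of 19 tested, 1 was called higher in shMiwi, the mannose receptor Mrc1 (1128 and 1206 in shCaf1 against 1852 and 1928; 0.69, SE 0.13, limma adjusted p = 0.0205), and 2 lower, Lyz1 (5995 and 5872 against 3288 and 3687; -0.77, SE 0.11) and Aif1 (7098 and 7442 against 4410 and 4975; -0.63, SE 0.11). Their calls were lost without shCaf1 replicate 2, at differences of 0.74, -0.78 and -0.60. Mrc1 and Aif1 also lost theirs without shCaf1 replicate 1 (0.64 and -0.67). Jund, a factor of the AP-1 family, read 5896 and 5713 against 3342 and 3615 (-0.74, SE 0.11, limma adjusted p = 0.0103), and lost its call without shCaf1 replicate 2 (adjusted p = 0.0526).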
